A study of Mus musculus with 6 samples.

Results

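The genes described here encode the constitutive proteasome, the protease that degrades most of the cell's ubiquitin-tagged proteins, in lymphatic endothelial cells of mouse melanomas. Members were all genes whose symbol is Psma, Psmb, Psmc, Psmd or Psme followed by digits only, other than the interferon-induced catalytic subunits Psmb8, Psmb9 and Psmb10, with a mean of at least 1 CPM (a library's read counts scaled to a common depth) over the 6 libraries. The pattern matched 42 symbols, leaving out the 3 immunoproteasome genes left 39, and 0 of these fell under 1 CPM. They were 39 of 13454 genes in the deposited table, of which 11980 had a mean of at least 1 CPM and were tested. Of the 39, 37 are treated as constitutive, and Psme1 and Psme2, which interferon induces, are described apart.

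Melanomas of the transplanted line B16-OVA-VEGFC, which by its name carries ovalbumin and the lymphatic growth factor VEGFC, were grown in mice lacking Ch25h in their lymphatic vessels (Ch25h KO, 3 libraries) or in littermates with the gene (WT, 3 libraries). Ch25h makes 25-hydroxycholesterol, an oxysterol that restrains sterol synthesis and acts on immune cells, and the question addressed is which transcripts differ in the lymphatic endothelium without it. Tumours were digested, CD45-CD31+GP38+ cells were sorted, and SMART-Seq v4 full-length cDNA, whose reads do not tell the strand, was made before Nextera XT library preparation. The driver of the deletion, the age and sex of the mice, the number of animals behind a library and the abbreviation HE in the titles of the Ch25h KO libraries are not stated in the sources. The p-values therefore describe the spread among the 6 libraries, which could be technical.

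The 26S proteasome is built from a barrel, the 20S core, capped by the 19S regulatory particle. The core's outer α rings gate entry and its inner β rings hold the proteolytic sites, while the 19S base unfolds substrates with a ring of ATPases and its lid and receptors recognise and remove ubiquitin. In antigen presentation the core makes many of the peptides displayed on MHC class I, and interferon-γ replaces its catalytic subunits and adds the activator PA28αβ. When proteasome activity falls, the transcription factor encoded by Nfe2l1 raises most subunit genes together.

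The libraries held 36556824 to 46165273 reads. Ch25h stood at 82.9, 88.8 and 106 CPM in WT libraries 1 to 3 and at 0, 0.0232 and 2.95 CPM in the libraries labelled Ch25h KO (limma adjusted p = 0.00365). The groups were far apart, with library 3 of Ch25h KO above the 3 reads that a count of 0 allows (0.0648 to 0.0805 CPM over the libraries). The 7 lymphatic endothelial markers analysed (Prox1, Lyve1, Flt4, Pdpn, Reln, Pecam1, Cdh5) summed to 5220 to 7090 CPM. The 11 leukocyte markers in the table summed to 40.6 to 372 CPM in the WT libraries and 43.7 to 280 CPM in the Ch25h KO libraries. The 7 melanoma markers summed to 40.9 to 199 and 101 to 250 CPM, and 6 fibroblast markers to 66.8 to 354 and 77.3 to 201 CPM. The sum of 6 blood vessel endothelial markers was 2130 to 3210 CPM in the WT libraries. It was lower in every Ch25h KO library, at 1840 to 1900 CPM. Most of it came from Plvap (1090 to 2520 CPM over the 6 libraries) and Kdr (554 to 915 CPM). Flt1, Nrp1 and Esm1 did not exceed 4.74 CPM in any library. Only Plvap and Flt1 (2 of 6) were separated downward, against 5.78% of all tested genes. Emcn had a higher mean in Ch25h KO (log2 fold change 0.59), and the other 5 a lower one. What part these marker sets had in the results was not tested.

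No constitutive proteasome gene passed the threshold for a difference with and without Ch25h. With 3 libraries per group this does not establish equal levels. By limma with Benjamini-Hochberg adjustment over all 11980 genes, 0 of 39 members passed 0.05, against 0.00835% of all tested genes (1 gene, Ch25h). At an unadjusted limma p under 0.05 the count was also 0 of 39, against 5.41% of all tested genes, and edgeR and DESeq2 on the recovered reads likewise gave 0 of 39, against 5.46% and 6.27%. After adjustment edgeR called 0% and DESeq2 0.0919% of tested genes and 0 of 39 members. The smallest limma adjusted p of a constitutive member was 0.938, for Psmd5. Fold changes of the 37 constitutive members, on the log2(CPM + 1) scale and as Ch25h KO minus WT throughout, ran from -0.15 for Psmd10 to 0.32 for Psmd5. Apart from Psma8, the 95% limma intervals of the constitutive members all lay between -0.51 and 0.66.

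Within these limits, the direction was uneven. Of the 37 constitutive members, 29 had a higher mean in Ch25h KO (78.4%, against 49.6% of all tested genes), with a median log2 fold change of 0.12 against 0.00 over all tested genes. In 5 of 37 every Ch25h KO library lay above every WT library (13.5%, against 4.38% of all tested genes), and in 0 of 37 every one lay below (against 5.78%; in either direction 10.2% of all tested genes were separated). The 5 were Psmc4, Psmc6, Psmd11, Psmd12 and Psmd5, all belonging to the 19S particle or its assembly. The members were chosen with earlier results of these data known, their transcripts move together from library to library, and these shares carry no test. In bulk RNA of sorted cells, fewer cells of a type and less RNA per cell cannot be told apart.

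**Figure D1:**
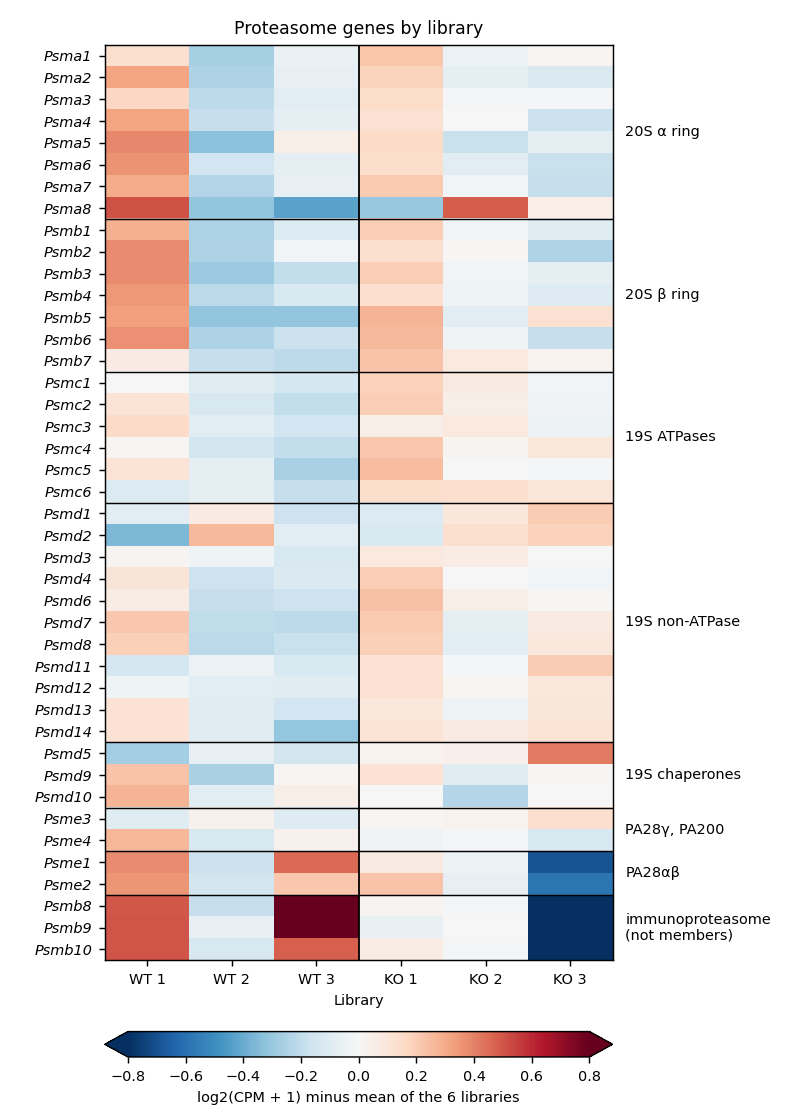
Level of each proteasome gene in each library, as log2(CPM + 1) minus that gene's mean over the 6 libraries, with genes in rows grouped by role and libraries in columns. The 20S rows are highest in WT library 1 in 13 of 15 genes, against 20% of all tested genes. The 19S rows are highest in Ch25h KO library 1 in 10 of 17, against 17.6% of all tested genes. The interferon-induced rows at the bottom are lowest in Ch25h KO library 3.

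Among the 20S genes are the 3 that encode the proteolytic sites, Psmb5, Psmb6 and Psmb7. Psmb7 had no RefSeq promoter entry, so its promoter was not searched for motifs. Psmb6 and Psmb5 held a match to the antioxidant response element (TGACNNNGC, searched on both strands), the motif bound by the Nfe2l1 and Nfe2l2 factors, in the stretch from 250 bases before to 50 bases after their RefSeq start. The element was in 20% of the constitutive members searched and in 17.4% of tested genes with a promoter entry. The windows of Psmb5 and Psmb6 are shown because these are catalytic genes. They are from RefSeq on GRCm38.p6, with the match in capitals, and Psmb5 is read from the minus strand.
Psmb5 (chr14:54618023-54618122): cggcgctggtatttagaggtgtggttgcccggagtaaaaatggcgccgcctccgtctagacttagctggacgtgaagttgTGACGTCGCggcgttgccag
Psmb6 (chr11:70525257-70525356): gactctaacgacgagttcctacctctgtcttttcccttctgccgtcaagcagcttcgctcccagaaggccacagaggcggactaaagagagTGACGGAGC

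Psmb5 (β5, the chymotrypsin-like site; chromosome 14, 54614119 to 54618022, minus strand, 3 exons after merging transcripts) was at 104, 66.3 and 66.1 CPM in WT libraries 1 to 3 and, in Ch25h KO 1 to 3, at 99.9, 77.9 and 89.9 CPM. The groups overlapped, since WT library 1 was the highest of all 6. Its log2 fold change was 0.20 (95% interval -0.24 to 0.65; limma adjusted p = 0.973). Psmb6 (β1, the caspase-like site; chromosome 11, 70525367 to 70527858, plus strand) was at 462, 302 and 318 CPM in WT and, in Ch25h KO, at 430, 352 and 315 CPM. Again the highest library was WT 1, and the log2 fold change was 0.04 (95% interval -0.40 to 0.47; limma adjusted p = 0.994).

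Psmb7 (β2, the trypsin-like site; chromosome 2, 38588036 to 38644087, minus strand) was at 142, 119 and 117 CPM in WT and, in Ch25h KO, at 159, 143 and 138 CPM. Here the overlap was slight, with WT library 1 just below Ch25h KO library 2 and above library 3, and the log2 fold change was 0.22 (95% interval -0.09 to 0.53; limma adjusted p = 0.967). Its exons overlap those of Nek6 on the other strand, and reads of the shared stretch cannot be assigned without strand. Among β genes the lowest fold change was that of Psmb2, which encodes β4, a structural subunit (chromosome 4, 126677630 to 126709714). It was at 569, 369 and 432 CPM in WT and, in Ch25h KO, at 478, 441 and 370 CPM, with a log2 fold change of -0.07 (95% interval -0.48 to 0.34) whose sign turned under 3 of the other settings given in the closing section.

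The α ring, which is structural and holds the gate, split evenly, with 4 of 8 genes higher and 4 lower in Ch25h KO and a median log2 fold change of 0.00. Psma1 (α6; chromosome 7, 114264606 to 114276118) was at 329, 250 and 289 CPM in WT and, in Ch25h KO, at 350, 291 and 303 CPM, a log2 fold change of 0.13 (limma adjusted p = 0.973). Psma6 (α1; chromosome 12, 55384222 to 55418454) was at 400, 279 and 294 CPM in WT and, in Ch25h KO, at 343, 292 and 275 CPM, a log2 fold change of -0.08 (95% interval -0.47 to 0.30). In both, the highest and the lowest WT library enclosed at least 1 Ch25h KO library.

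Psma8 encodes an α subunit that replaces α4 in the testis. It was near the detection limit, at 2.08, 0.739 and 0.605 CPM in WT and, in Ch25h KO, at 0.751, 2.02 and 1.24 CPM, or 28 to 95 reads per library, while every other member had at least 1856 reads in each. Neither group stood apart (log2 fold change 0.15, 95% interval -0.71 to 1.01). Over all 15 genes of the 20S core, 9 were higher in Ch25h KO, the median log2 fold change was 0.04, and in 0 of 15 did the groups separate (10.2% of all tested genes in either direction).

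With all 6 libraries, the 19S genes had small differences of a single sign. All 17 had a higher mean in Ch25h KO, with log2 fold changes from 0.06 to 0.25 and a median of 0.14. In 4 of 17 every Ch25h KO library lay above every WT library (23.5%, against 4.38% of all tested genes). The single sign did not hold without WT library 1, where Psmd2 had a lower mean in Ch25h KO. Leaving out 1 library at a time, the log2 fold change of Psmc3 ran from 0 to 0.15. The window of Psmc6 is shown as the 19S gene with the smallest p and that of Psmd11 as the non-ATPase gene with the smallest p. Capitals in Psmc6 mark the antioxidant response element on the other strand (GCTAAGTCA) and the ETS motif CCGGAAG, and capitals in Psmd11 mark the ETS motif on the other strand. Both genes lie on the plus strand, and the sequences are from RefSeq on GRCm38.p6.
Psmc6 (chr14:45329587-45329750): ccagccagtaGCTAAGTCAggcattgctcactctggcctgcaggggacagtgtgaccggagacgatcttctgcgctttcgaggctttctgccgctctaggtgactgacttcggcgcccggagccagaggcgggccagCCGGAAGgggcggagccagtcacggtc
Psmd11 (chr11:80428515-80428614): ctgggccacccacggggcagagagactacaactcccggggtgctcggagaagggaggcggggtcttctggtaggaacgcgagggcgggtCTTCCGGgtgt

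Of the ATPases, which form the ring that unfolds substrates and opens the core's gate, all 6 were higher in Ch25h KO, with a median log2 fold change of 0.15. Psmc6 (Rpt4; chromosome 14, 45329788 to 45349705, plus strand) was the steadiest of them, at 140, 144 and 133 CPM in WT and, in Ch25h KO, at 167, 166 and 162 CPM. The groups stood clear of each other, with means of 139 ± 5.44 and 165 ± 2.69 CPM (SD, n = 3 each). The log2 fold change was 0.25 (SE 0.12, 95% interval -0.02 to 0.52), with limma p = 0.0694 before and 0.941 after adjustment, and an exact two-sided permutation p of 0.1, the smallest that 3 libraries against 3 can give.

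Psmc4 (Rpt3; chromosome 7, 28041707 to 28050101) was at 334, 298 and 288 CPM in WT and, in Ch25h KO, at 384, 336 and 351 CPM. Its groups did not overlap, by a narrow margin between WT library 1 and Ch25h KO library 2, and the log2 fold change was 0.22 (limma adjusted p = 0.964). Psmc4 and Psmd12 are named for their separation, after their values were seen. Psmc3 (Rpt5; chromosome 2, 91054009 to 91066369) had the lowest fold change of the ring, at 456, 386 and 369 CPM in WT and, in Ch25h KO, at 424, 433 and 399 CPM. Its groups overlapped and the log2 fold change was 0.06 (limma adjusted p = 0.985); its exons overlap those of Slc39a13 on the other strand.

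Among the 11 non-ATPase genes, which encode the lid, the ubiquitin receptors and the large scaffolds of the base, all 11 were higher in Ch25h KO and the median log2 fold change was 0.13. Psmd11 (Rpn6, a lid scaffold that braces the cap against the core; chromosome 11, 80428615 to 80473248, plus strand, 14 merged exons) was at 153, 163 and 155 CPM in WT and, in Ch25h KO, at 183, 167 and 194 CPM. Psmd12 (Rpn5, another lid scaffold; chromosome 11, 107479484 to 107504362) was at 201, 194 and 193 CPM in WT and, in Ch25h KO, at 224, 208 and 219 CPM. In both genes the lowest Ch25h KO library, library 2, lay a little above the highest WT library. The log2 fold changes were 0.20 and 0.14 (95% intervals -0.08 to 0.49 and -0.13 to 0.41; limma adjusted p = 0.967 and 0.973). Psmd11 shares 97.94% of 1501 bases with A730017L22Rik, a gene in the deposited table. It also shares 97.95% of 1269 bases with the pseudogene Gm14048, so some of its reads could belong to these copies.

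Psmd13 (Rpn9, a lid subunit; chromosome 7, 140881968 to 140898643) had the lowest fold change of this set. It was at 219, 189 and 182 CPM in WT and, in Ch25h KO, at 214, 197 and 215 CPM, overlapping groups with a log2 fold change of 0.09, and its exons overlap those of Sirt3 on the other strand. Psmd2 (Rpn1, a scaffold of the base that binds ubiquitin shuttles), named after its values were seen, was at 252, 388 and 305 CPM in WT and, in Ch25h KO, at 297, 354 and 368 CPM, lowest in WT library 1 and highest in WT library 2. Psmd11 was also lowest in WT library 1.

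The 3 chaperones that help assemble the 19S base and leave before the proteasome is complete did not share a direction. Psmd5 (S5b; chromosome 2, 34849734 to 34874968) had the highest fold change of all constitutive members, at 91.4, 106 and 99.8 CPM in WT and, in Ch25h KO, at 113, 114 and 148 CPM. The groups did not overlap, and Ch25h KO library 3 stood above the other two of its group. Its log2 fold change was 0.32 (SE 0.15, 95% interval -0.01 to 0.66), limma p = 0.0586 before and 0.938 after adjustment, with an exact permutation p of 0.1.

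Psmd10 (gankyrin; X chromosome, 140948429 to 140956728) was at 61.8, 47.7 and 52.7 CPM in WT and, in Ch25h KO, at 51, 43.1 and 51.1 CPM. This was the lowest fold change of the constitutive members (log2 -0.15, 95% interval -0.51 to 0.21), and the groups overlapped. Psmd9 (p27) was at 103, 73 and 88.2 CPM in WT and, in Ch25h KO, at 95, 81.8 and 88.4 CPM, a log2 fold change of 0.02.

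The alternative caps of the core that interferon does not induce pointed in opposite directions. Psme3 (PA28γ, a nuclear activator; chromosome 11, 101316213 to 101323537) was at 157, 172 and 156 CPM in WT and, in Ch25h KO, at 169, 171 and 184 CPM, and Psme4 (PA200, linked to degradation of acetylated histones; chromosome 11, 30771726 to 30880361, 50 merged exons) at 65.4, 49.6 and 55.7 CPM in WT and, in Ch25h KO, at 53.3, 53.9 and 49.6 CPM. Both sets of libraries overlapped. The log2 fold changes were 0.11 (95% interval -0.17 to 0.39) and -0.11 (95% interval -0.46 to 0.23).

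**Figure D2:**
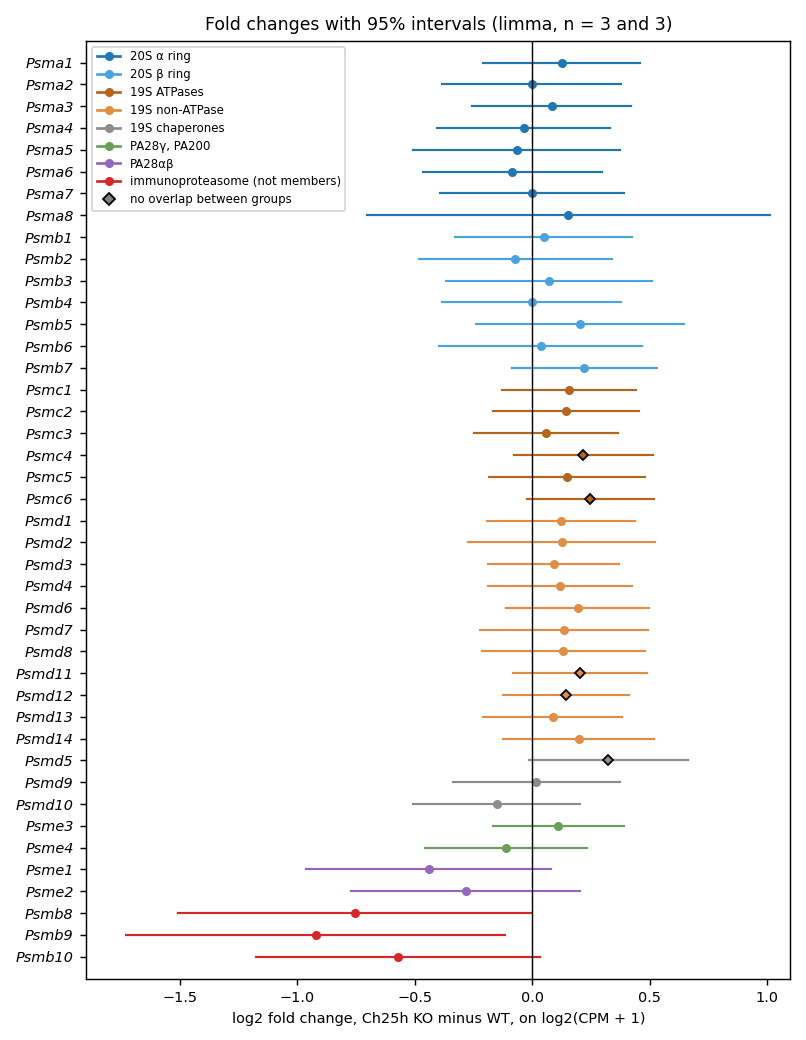
Log2 fold change (Ch25h KO minus WT, on log2(CPM + 1)) of each proteasome gene as a point, with its 95% limma interval as a line, from 3 libraries per group; diamonds mark genes whose groups do not overlap. All constitutive intervals include 0, the 17 points of the 19S ATPases and non-ATPases lie to the right of 0 between 0.06 and 0.25, and Psme1, Psme2 and the 3 immunoproteasome genes lie to the left.

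The 20S and 19S genes differed in how they moved between libraries of the same group. As the median log2 deviation from the 6-library mean, the 20S genes stood at 0.33, -0.25 and -0.09 in WT libraries 1 to 3 and at 0.18, -0.02 and -0.10 in Ch25h KO libraries 1 to 3. For the 19S genes the medians were 0.06, -0.09 and -0.16 in WT and 0.14, 0.05 and 0.08 in Ch25h KO libraries. WT library 1 was the highest of the 6 in 13 of 15 20S genes and in 4 of 17 19S genes, while over all tested genes it was the highest in 20%. WT library 2 or 3 was the lowest in 14 of 15 20S genes, and WT library 3 alone in 12 of 17 19S genes. Over all tested genes WT library 2 was the lowest in 17.6% and WT library 3 in 16.8%. The median within-group SD on the log2 scale was 0.23 for the 20S genes, 0.13 for the 19S genes and 0.25 over all tested genes.

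Transcript length moved with this pattern. The longest protein-coding transcript of the 20S genes had a median of 1165 bases (766 to 2911) and that of the 19S genes a median of 1819 bases (1316 to 3112). Over the 491 tested genes whose longest coding transcript has at most 1000 bases, the library medians were 0.31, -0.30 and -0.16 in WT and 0.24, -0.02 and -0.07 in Ch25h KO. This class holds 4 of the 15 20S genes, and the class over 1000 and up to 1500 bases holds 7. Over the 941 genes of that second class the library medians were 0.20, -0.20 and -0.12 in WT and 0.20, -0.02 and -0.06 in Ch25h KO. Over the 1515 genes above 6000 bases they were -0.02, 0.14 and 0.06 in WT and -0.15, -0.04 and 0.01 in Ch25h KO. The median log2 fold change was 0.10 in the shortest length class and -0.12 in the longest.

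An alternative added after the data were seen removed, in each library, the loess trend of the deviation on log length. The median within-group SD then was 0.08 for the 20S genes and 0.09 for the 19S genes, and 0.22 over the 10971 tested genes with a length, which had 0.24 before. The 20S median log2 fold change was 0.01, the 19S median 0.13, and 17 of 17 19S genes still had a higher mean in Ch25h KO. In 7 of 37 constitutive members (Psmb7, Psmc2, Psmc6, Psmd11, Psmd3, Psmd5 and Psmd6) every Ch25h KO library was then the higher (6.03% of all tested genes with a length), and in 3 of 37 (Psma6, Psmb2 and Psmd10) every one was the lower (5.2%). In 2 of 37, Psmd5 and Psmc6, limma's p was under 0.05 there before adjustment, and neither passed after it. Over all alternatives the adjusted p of Psmd5 ran from 0.311 to 1 and that of Psmc6 from 0.221 to 1. With length removed, the 19S medians still differed between libraries of the same group, being -0.16 in WT library 3 and 0.01 in WT library 2.

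**Figure D3:**
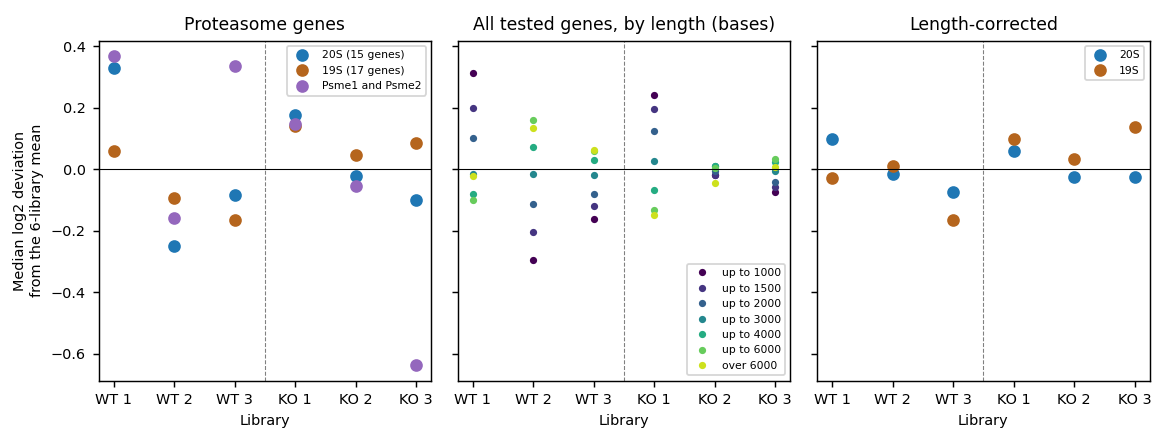
Median log2 deviation from the 6-library mean in each library, for the 20S genes, the 19S genes and the Psme1 and Psme2 pair (left), for all tested genes in classes of transcript length (middle), and for the 20S and 19S genes after removal of the length trend (right); the dashed line separates WT from Ch25h KO. In WT library 1 the 20S point lies at 0.33, and the genes of up to 1000 bases lie at 0.31. Those over 1000 and up to 1500 bases, the class with most 20S genes, lie at 0.20 there. After the correction the 20S points lie between -0.07 and 0.10.

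The count of separated genes depended on WT library 1, the library with the highest 20S level. Without WT library 1, every Ch25h KO library was above every remaining WT library in 24 of 37 constitutive members, 15 of the 19S and 8 of the 20S genes, where 16.7% of all tested genes were. Without Ch25h KO library 3 the count was 8 of 37 (7.96% of all tested genes). Both counts include Psmc4, Psmc6, Psmd11, Psmd12 and Psmd5. These were separated with all 6 libraries, so leaving any library out keeps them separated by construction. Without WT library 2, Psmd10 and Psme4 were lower in every Ch25h KO library (2 of 37, against 11.6% of all tested genes).

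The means of both genes of interferon-induced PA28αβ were lower in Ch25h KO, without passing the test. Psme1 (PA28α) and Psme2 (PA28β) together form the ring that opens the core's gate in cells exposed to interferon-γ. Psme1 held a match to the interferon regulatory factor element (GAAA, NN and GAAA in a row), on the other strand and in capitals below. The 30 bases are from RefSeq on GRCm38.p6, plus strand, from the base before to base 29 of its RefSeq start, which is 371 bases downstream of the gene start in GENCODE.
Psme1 (chr14:55578493-55578522): cgagctgtgcTTTCGCTTTCccttcccgct

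Psme1 (chromosome 14, 55578123 to 55581529) was at 360, 245 and 379 CPM in WT and, in Ch25h KO, at 291, 269 and 171 CPM. Psme2 (chromosome 14, 55587441 to 55591113) was at 142, 100 and 129 CPM in WT and, in Ch25h KO, at 130, 106 and 73.8 CPM. The exons of Psme1 overlap those of Emc9 on the other strand. In both genes WT library 2 lay within the Ch25h KO range and Ch25h KO library 3 was the lowest of the 6. For Psme2, WT library 3 (129 CPM) also lay within that range, just below Ch25h KO library 1 (130 CPM). The log2 fold changes were -0.44 (SE 0.23, 95% interval -0.96 to 0.08; limma adjusted p = 0.941) and -0.28 (95% interval -0.77 to 0.20; limma adjusted p = 0.973). Without WT library 2, every Ch25h KO library was below every WT library for Psme1 (11.6% of all tested genes). Without Ch25h KO library 3, the log2 fold changes were -0.21 for Psme1 and -0.06 for Psme2. With the length trend removed, every Ch25h KO library was the lower for both genes (5.2% of all tested genes with a length), with log2 fold changes of -0.48 (95% interval -0.90 to -0.07) and -0.33 (95% interval -0.69 to 0.02). Limma's p was then under 0.05 for Psme1 before adjustment only; its adjusted p ran from 0.27 to 1 over all alternatives. Psme2 shares 99.37% of 794 bases with Psme2b, a copy not analysed here, so its reads could belong to either.

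The immunoproteasome subunits that replace the constitutive catalytic subunits were also lowest in Ch25h KO library 3 and highest in a WT library. Psmb8 (β5i) was at 498, 310 and 625 CPM in WT and, in Ch25h KO, at 358, 350 and 159 CPM, Psmb9 (β1i) at 287, 193 and 392 CPM and at 194, 203 and 79.7 CPM, and Psmb10 (β2i) at 287, 185 and 282 CPM and at 211, 201 and 107 CPM. Their groups overlapped, and the log2 fold changes were -0.76, -0.92 and -0.57 (limma adjusted p = 0.916, 0.846 and 0.941). The exons of Psmb9 overlap those of Tap1, and those of Psmb8 an antisense gene, on the other strand, so reads of the shared stretches cannot be assigned. Dissociation stress genes (9) summed to 2400, 1920 and 6230 CPM in WT and, in Ch25h KO, to 2020, 2940 and 4250 CPM; their part was not tested.

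Set within each library against the median 20S level, the inducible genes had a lower mean in Ch25h KO. The 5 differences below equal the genes' own log2 fold changes to the digits given, so they are not a separate result. The log2 ratio of Psme1 was 0.25, 0.26 and 0.78 in WT and 0.14, 0.21 and -0.39 in Ch25h KO libraries, with a difference of -0.44 (exact two-sided permutation p = 0.1, adjusted 0.167 over 5 ratios). For Psmb9 it was -0.08, -0.09 and 0.83 in WT and -0.45, -0.19 and -1.48 in Ch25h KO libraries, a difference of -0.92 with the same p-values. Psmb10 gave -0.57 with the same p-values, Psmb8 -0.76 (exact p = 0.2, adjusted 0.25) and Psme2 -0.28 (exact p = 0.3). Leaving out 1 library at a time, the difference ran from -0.55 to -0.25 for Psme1 and from -1.18 to -0.54 for Psmb9. For both it was nearest to 0 without Ch25h KO library 3. No design of 3 against 3 can go below 0.1, so an exact p under 0.05 was out of reach.

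Levels of different subunits can be set side by side only per length. Per kilobase of merged exon, the WT levels ran from 379 ± 85.1 CPM for Psmb2 down to 0.458 ± 0.327 CPM for Psma8 (SD, n = 3). Below Psmb2 followed Psma6 at 263 ± 53.7, Psmc5 at 196 ± 25.3 and Psmb6 at 193 ± 47.1 CPM per kilobase, of which the latter pair does not differ beyond its spread. Above Psma8 came Psme4 at 6.79 ± 0.949, Psmd9 at 12.1 ± 2.05 and Psmd5 at 13.7 ± 1.02 CPM per kilobase, while the remaining chaperone, Psmd10, was at 36.8 ± 4.89. Per kilobase of the longest coding transcript the highest were Psmb2 (532 ± 119), Psmb6 (452 ± 110), Psma7 (392 ± 75.8) and Psma6 (311 ± 63.6 CPM), and Psma8 and Psme4 were again the lowest, at 0.675 and 8.76 CPM. Per kilobase of the median coding transcript Psma8 was again the lowest (0.841 CPM), followed by Psmd10 at 38.3 and Psmd5 at 40. Psme4 was at 86.6 and Psmd9 at 120 CPM, so the order of the low genes other than Psma8 depended on the length used. So did the upper order. Psmd2 ranked 2 among the constitutive members by that length (478 CPM), but 15 per merged exon and 22 per longest coding transcript.

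**Figure D4:**
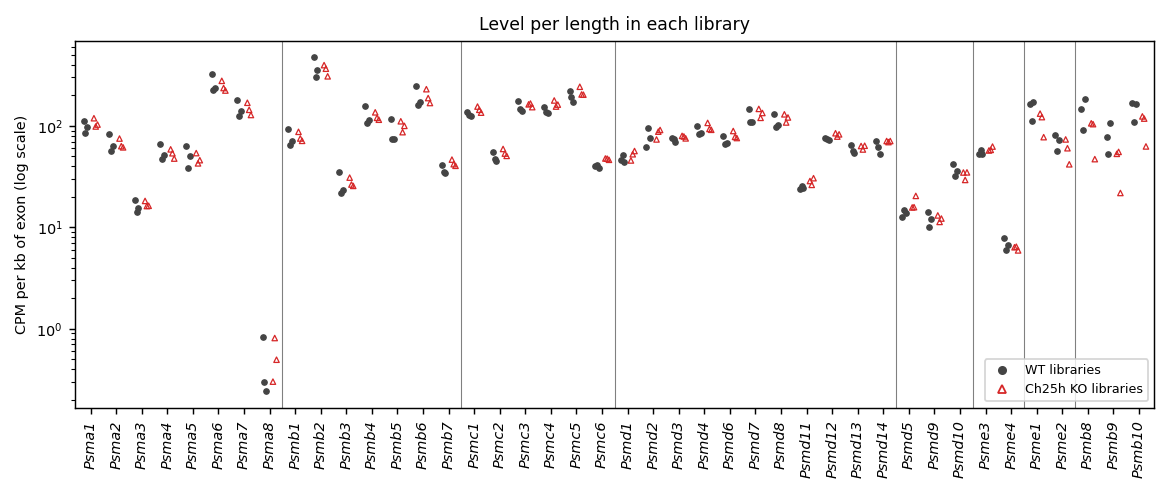
Level of each proteasome gene per kilobase of merged exon in each library, on a log axis, with WT libraries as filled circles and Ch25h KO libraries as open triangles, grouped by role. Psmb2 is the highest and Psma8 the lowest in both groups, and for most genes the groups lie over each other.

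The promoter search covered 30 of the 37 constitutive members, those with a RefSeq entry; Psma8, Psmb1, Psmb2, Psmb7, Psmc3, Psmd3 and Psmd7 had none. The antioxidant response element TGACNNNGC was in 6 of 30 (20%: Psmb5, Psmb6, Psmc6, Psmd12, Psmd9 and Psme4), against 14% of all 27025 genes with a promoter entry and 17.4% of the 8939 tested genes among them. The ETS motif CCGGAAG was in 12 of 30 (40%), against 9.93% of all and 20.6% of tested genes, and the nuclear respiratory factor 1 motif (GCGC, N and TGCGC in a row) in 6 of 30 (20%), against 5.19% and 11.9%. The CCAAT box was in 12 of 30 (40%), against 41.1% and 43.2%. The interferon regulatory factor element was in 3 of 30 (10%: Psmb3, Psmd4 and Psmd9), against 3.99% and 3.79%, and the gamma-activated sequence TTCNNNGAA was in Psmd2 alone (3.33%), against 9.55% and 8.28%. The cAMP response element TGACGTCA and the heat shock element (GAA, NN, TTC, NN and GAA in a row) were in 0 of 30, against 3.65% and 0.626% of tested genes. All motifs were searched on both strands, no match overlapped a match of another motif, and a match is a description of letters, not of a bound site.

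Genes around the proteasome that carry other names had 0 calls, where 0.00835% of all tested genes were called. Of 16 other subunits, assembly factors and regulators, 15 were tested, of which 9 had a higher and 6 a lower mean in Ch25h KO, with a median log2 fold change of 0.04. The smallest p among them was that of Psmg2, a chaperone of α ring assembly, at 77.8, 60.6 and 55.7 CPM in WT and, in Ch25h KO, at 89, 70.7 and 72.7 CPM (log2 fold change 0.26, limma adjusted p = 0.973). WT library 1 again lay inside the Ch25h KO range. Of the 6 genes of the pathway that adjusts proteasome transcription, 5 were tested, 3 with a higher and 2 with a lower mean. Nfe2l1 itself was at 179, 240 and 213 CPM in WT and, in Ch25h KO, at 127, 196 and 200 CPM, overlapping groups with a log2 fold change of -0.29 (limma adjusted p = 0.973). Of 11 genes for ubiquitin supply, its activating enzymes and shuttle factors, 4 had a higher and 7 a lower mean, with a median of -0.05. The smallest p was that of Ubqln4, a shuttle factor, at 85.8, 73.2 and 64 CPM in WT and, in Ch25h KO, at 65.2, 55.9 and 73 CPM (log2 fold change -0.20, limma adjusted p = 0.973).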

How the data were processed

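RNA-seq of 6 libraries was analysed, with groups taken from the genotype labels. The submitters' processing notes name mm10, HTSeq 0.9.1, STAR 2.7.0 and edgeR 3.26.8; for their roles, the annotation, the strand setting and reads that fit several genes, nothing is stated in the sources. The deposited signal is CPM scaled by TMM factors: divided by the worth of 1 read (0.0216 to 0.0268 CPM), 100% of values were whole within 0.01, and edgeR's TMM factors (0.967 to 1.02) equalled the implied ones. Reads carry no molecular identifiers, so limits cover counting error only.

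The main test was limma 3.58.1 (R 4.3.3) on log2(CPM + 1), group as the only term, a variance trend, and p-values adjusted after Benjamini and Hochberg over 11980 genes (mean 1 CPM or more), at 0.05. The log2(CPM + 1) scale understates changes of low genes. edgeR 4.0.16 and DESeq2 1.42.0 ran on the recovered counts, which the deposited values gave. No 2 libraries agreed within sampling noise. Positions and lengths are from GENCODE M21 on mm10, promoters from RefSeq. Of 39 members, 12 share at least 95% identity over at least 200 bases with another gene's transcript, and the exons of 10 overlap another gene, in 9 cases one on the opposite strand. The tests were checked on simulated data.

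Members and lists were chosen with earlier results of these data known. Named with values in every library were the catalytic and Psme genes, Psmb8 to Psmb10, in each role group the genes of smallest p, highest and lowest fold change, and in each other list the gene of smallest p. Older symbols were resolved through RefSeq synonyms (Sem1 as Shfm1, Ecpas as AI314180, Psme3ip1 as Fam192a). Other pseudocounts, filters, scalings, variance priors, weights per library, a block by library number, count tools and lengths were tried, as was leaving out each library. The summed level of the interferon-γ target list is not reported here.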

Additional observations from a re-analysis of the deposited data

How the results depend on the processing

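The count of members past the threshold was 0 under every alternative run. Of all tested genes 1 passed, against 0 with a pseudocount of 0.25 CPM, 0 by edgeR (654 genes at an unadjusted p under 0.05), 11 by DESeq2, and 0 to 2 when 1 library was left out. The library numbers did not pair the samples (correlations of same-numbered deviations 0.238, -0.062 and -0.101), and with the replicate block 1 gene and 0 members passed and the constitutive median log2 fold change was 0.12. Leaving out 1 library at a time, that median ran from 0.06 to 0.19, the 19S median from 0.09 to 0.20, the 20S median from -0.08 to 0.19 and the median of Psme1 and Psme2 from -0.53 to -0.13. Constitutive members separated upward ran from 5 to 24 and downward from 0 to 2. The 5 separated with all libraries stay separated by construction when a library is left out. With all libraries but other scalings, 4 were separated upward by quantile normalization and 7 by DESeq2 size factors. With the length correction 3 constitutive members were separated downward, and the median of Psme3 and Psme4 was 0.06. Psmc4 and Psmd12, separated in the main analysis, were not separated with that correction. Of the 17 named members, the fold changes that changed sign were those of Psmb2 (0.01 with library weights, -0.21 to 0.10 leaving out 1 library), Psmb6 (-0.02 length-corrected, -0.09 to 0.23), Psma6 (-0.18 to 0.08), Psma8 (-0.05 to 0.45) and Psme4 (0.005 length-corrected); the cause was not tested. Among the others, Psma2 (0.014) and Psma7 (-0.04), both near 0, changed sign with the length correction. Leaving out WT library 1 also turned the sign of others. Among them were Psma4 and Psma5, then higher in Ch25h KO, and Psmd2, then lower. By construction the WT level per kilobase moved with the length used: the 20S median was 75.9 CPM per merged exon, 114 per longest and 158 per median coding transcript, and the 19S median 74.3, 143 and 191 CPM. Other scalings moved the median log2 fold change of all genes by at most 0.02.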

Other observations

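Among the 20S genes, those with a processed pseudogene copy in the annotation (Psma3, Psma4, Psma5, Psmb3 and Psmb5) were at lower levels per length than the 9 without (Psma8 left out). Per kilobase of merged exon their medians were 63.4, 38.3 and 50 CPM in WT libraries 1 to 3 and 53.9, 42.7 and 45.9 CPM in Ch25h KO libraries, against 157, 106 and 113 CPM and 136, 120 and 115 CPM for the others. In WT means the ranges overlapped, from 16 to 87.7 CPM with a copy and from 36.8 to 379 CPM without. The 19S genes Psmc1, Psmd2 and Psmd11 also have such a copy and did not share a low level. Their WT means were 129, 78 and 24.6 CPM per kilobase of merged exon, ranks 8, 15 and 32 of the 37 constitutive members. The 20S sets were compared after the values were seen, with no test, and how reads that fit a gene and its copy were counted is not stated in the sources.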
